A study of Mus musculus with 11 samples.

Results

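Collagen genes were read from gene expression arrays of mouse embryo mandibular arch, the tissue that forms the lower jaw and the front of the tongue. They were taken as every gene whose single symbol in the array annotation is Col, a type number, the letter a and a chain number, which gave 42 of the 18194 genes on the array, read by 1 probe set each (the one with the highest mean). The embryos were untreated ICR mice, an outbred strain, and the arch was cut into a medial piece, from its distal end, and a remaining lateral piece, so that the study could set one region against the other. The 11 arrays fell into 6 groups: medial and lateral tissue at E9.7 (embryonic day, 1 array each), medial and lateral tissue at E10.5 (3 arrays each), medial tissue at E11.5 (2 arrays) and medial tissue at E14.5 (1 array). Each time point drew on RNA from a pool of 40 embryos, and nothing in the labels says whether replicate arrays came from separate pools, so p-values measure only the spread between arrays, which may be technical. For E14.5 the label adds tongue and the anterior part of the region, so stage and dissection change together there.

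Collagens are secreted or membrane-bound proteins in which 3 chains wind into a triple helix with glycine recurring along each chain. Fibrillar collagens (types I, III and V) form the fibres of connective tissue, types II, IX, X and XI build cartilage, and types IV, VII, XV and XVIII belong to basement membranes, the sheets under epithelia and around vessels and muscle. Type VIII forms sheet-like networks, type VI forms beaded microfilaments around cells, the FACIT group (XII, XIV, XVI, XIX, XX and XXII) decorates the surface of fibrils, and types XIII, XVII, XXIII and XXV are anchored in cell membranes. In the mandibular arch, neural crest mesenchyme is known to give rise to the cartilage, bone and connective tissue, while muscle cells enter from elsewhere.

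By these types, the members were 7 fibrillar, 8 cartilage, 9 basement membrane, 2 network, 5 beaded filament, 6 FACIT and 4 transmembrane chains. Col24a1 was counted as fibrillar and Col27a1 as cartilage, while Col26a1 was placed in none of the types. Signals are on a log2 scale after quantile normalization, so a difference of 1 is 2-fold, and levels of different genes are not compared. To be tested, a gene had to reach 4.86 (the 50th percentile of the values) on 2 or more of the 8 arrays with replicates, and 30 of the 42 members passed. The other 12 were Col10a1, Col11a2, Col14a1, Col17a1, Col19a1, Col22a1, Col24a1, Col4a3, Col4a4, Col5a3, Col6a5 and Col8a1.

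The arrays were not alike in signal. Medial E10.5 replicate 1 had a deposited median of 2.37 and medial E11.5 replicate 1 of 2.47, while the other 9 arrays lay between 5.20 and 5.73. After normalization, medial E11.5 replicate 1 was still below replicate 2 in 26 of the 30 tested members (86.7%), against 51.3% of all tested genes. Likewise medial E10.5 replicate 1 was the lowest of its group in 19 of 30 members (63.3%), against 37.4% of all tested genes. Spiked-in control probe sets placed the arrays in 4 groups, called control-probe batches here: batch 1 with the E9.7 arrays, replicate 2 of medial E10.5 and of medial E11.5, and replicate 1 of lateral E10.5, batch 2 with the low-signal arrays, batch 3 with the third replicate of medial E10.5 and the last 2 of lateral E10.5, and batch 4 with the E14.5 array alone. All 6 mesenchyme markers (Twist1, Prrx1, Pdgfra, Pdgfrb, Lum and Postn) had a mean at or above 4.86 in every group. Of the 10 chondrocyte markers, Sox9, Sox5, Sox6 and Matn4 did so too, while Matn1, Snorc and Cnmd were under it in every group. Acan, Hapln1 and Matn3 were under it in only part of the groups.

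Bases upstream of the annotated start are shown for 5 members: Col8a2, Col23a1 and Col25a1, the chains at least 2-fold lower in medial tissue at E9.7 and called lower at E10.5, and Col1a2 and Col6a1, a fibrillar and a beaded filament chain that rose medially at E11.5. The windows are the 200 bases before the start in RefSeq (GRCm38.p6), at chr4:126286594-126286793 (plus strand) for Col8a2, chr11:51289720-51289919 (plus strand) for Col23a1, chr3:130180645-130180844 (plus strand) for Col25a1, chr6:4505418-4505617 (plus strand) for Col1a2 and chr10:76726045-76726244 (minus strand) for Col6a1. They are given 5′ to 3′ on the gene's strand, and capitals mark GGGCGG (the GC box), CCAAT and TATAAA on either strand and, in Col25a1 alone, also a repeated stretch.
Col8a2: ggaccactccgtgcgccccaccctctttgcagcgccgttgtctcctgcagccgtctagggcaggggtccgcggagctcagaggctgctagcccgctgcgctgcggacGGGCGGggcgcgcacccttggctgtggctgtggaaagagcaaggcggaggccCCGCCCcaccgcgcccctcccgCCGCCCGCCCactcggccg
Col23a1: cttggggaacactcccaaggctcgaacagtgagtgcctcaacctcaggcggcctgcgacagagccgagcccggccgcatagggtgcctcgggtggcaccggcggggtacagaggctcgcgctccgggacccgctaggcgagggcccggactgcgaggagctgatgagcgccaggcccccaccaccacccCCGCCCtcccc
Col25a1: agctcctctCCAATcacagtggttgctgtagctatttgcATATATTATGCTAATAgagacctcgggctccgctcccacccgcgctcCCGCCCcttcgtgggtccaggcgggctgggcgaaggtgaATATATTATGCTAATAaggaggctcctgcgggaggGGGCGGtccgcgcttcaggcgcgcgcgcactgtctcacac
Col1a2: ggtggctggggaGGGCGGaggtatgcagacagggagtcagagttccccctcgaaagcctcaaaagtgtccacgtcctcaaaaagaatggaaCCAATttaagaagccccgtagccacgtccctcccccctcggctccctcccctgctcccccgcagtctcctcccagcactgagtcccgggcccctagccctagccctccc
Col6a1: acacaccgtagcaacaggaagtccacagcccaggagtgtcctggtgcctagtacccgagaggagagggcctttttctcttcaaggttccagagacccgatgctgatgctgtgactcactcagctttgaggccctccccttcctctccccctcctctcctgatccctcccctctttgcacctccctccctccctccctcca
The 4 GC-box matches of Col8a2 include a pair that overlap each other, Col23a1 held 1, Col25a1 held 2 and Col1a2 held 1, and the Col6a1 window held none of the 3 motifs. The Col25a1 window carried the 16 bases ATATATTATGCTAATA at 2 places, starting 161 and 75 bases before the start, while the longest repeat within any other member's window was 11 bases. Sequence was matched for 33 of the 42 members (36 windows), of which 21 windows (58.3%) held GGGCGG, against 31.0% of all 32851 windows of that length. CCAAT was in 27.8% of the members' windows, against 29.3% of all windows, and TATAAA in 11.1%, against 9.96%. A match is a run of letters and not a known binding site.

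In medial tissue at E10.5, the network chain Col8a2, the transmembrane chains Col25a1 and Col23a1 and the cartilage chain Col2a1 were lower than in lateral tissue, and the transmembrane chain Col13a1 was higher. These 5 of 30 tested members passed an adjusted p of 0.05 (limma, Benjamini-Hochberg over all 11968 genes), against 4.63% of all genes tested. Of the 30, Col8a2 alone lay under the filter level on all arrays of one region, so it entered through its lateral values. Only 1 of 30 was higher in medial tissue (2.82% of all genes were) and 4 were lower (1.80% of all genes were). The median difference over the members was -0.12, against -0.01 over all genes tested. In bulk tissue, fewer cells of a type and less RNA per cell cannot be told apart.

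Col8a2, a chain of the sheet-forming type VIII collagen, had 3.90, 4.21 and 2.97 on the medial arrays, against 7.22, 6.53 and 6.73 on the lateral arrays. All medial arrays lay under the filter level of 4.86 and all lateral arrays well over it. The lateral mean was at least 3.89-fold above the medial level, counting medial values at the filter level, and the difference as measured was -3.13 ± 0.32 (SE, limma adjusted p = 0.00085). Its partner Col8a1 stayed under the filter level on all arrays of both regions, with 4.54, 4.54 and 4.10 in medial and 4.44, 4.42 and 4.51 in lateral tissue. Col25a1, a transmembrane chain known in the mouse for its need in motor innervation of muscle, had 5.86, 6.64 and 6.30 in medial tissue, against 8.13, 7.99 and 8.13 in lateral tissue. The groups did not overlap, and the difference was -1.82 ± 0.23 (limma adjusted p = 0.00208). Its second probe set gave -0.47, so the size of that difference depended on the probe set.

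Col23a1, a transmembrane chain whose outer part can be shed, had 6.80, 7.24 and 6.77 in medial tissue, against 8.45, 8.23 and 8.33 in lateral tissue. Every medial array was lower than every lateral one (difference -1.40 ± 0.18, limma adjusted p = 0.0024), and its other probe sets gave -1.55 and -1.04. With the last of these, the probe set of largest variance, the adjusted p was 0.110 (alternatives from 0.000297 to 0.597, the highest with the values as deposited). Col13a1, a transmembrane chain known from the neuromuscular junction, had 6.67, 6.65 and 6.77 in medial tissue, against 6.14, 6.20 and 5.91 in lateral tissue. It was the 1 called member that was higher medially (0.61 ± 0.11, limma adjusted p = 0.0145). Its call was lost without medial replicate 3 (0.0524), without lateral replicate 3 (0.0822) and after median centring of the arrays (0.271), within a range of 0.00372 to 0.695 over the alternatives.

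Col2a1, the main fibril chain of cartilage, had 9.64, 9.67 and 9.48 in medial tissue, against 10.66, 10.52 and 10.56 in lateral tissue. The arrays formed 2 tight groups that did not overlap, with a difference of -0.98 ± 0.19 (limma adjusted p = 0.0193). Without any one of medial replicates 2 and 3 or lateral replicates 1, 2 and 3 the adjusted p lay between 0.0551 and 0.0758, and after median centring of the arrays it was 0.164 (alternatives from 0.000537 to 0.597). The other cartilage chains did not pass. Col9a1, which coats collagen II fibrils, had 10.94, 11.21 and 11.42 in medial and 11.16, 11.17 and 11.31 in lateral tissue. Its partner Col9a2 had 5.31, 5.78 and 5.58 in medial and 4.81, 4.40 and 4.97 in lateral tissue, a difference of 0.83 ± 0.30 that missed the threshold (limma adjusted p = 0.197) although the arrays did not overlap. Col9a3, Col11a1 and Col27a1 differed by -0.17, -0.09 and -0.46.

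**Figure D1:**
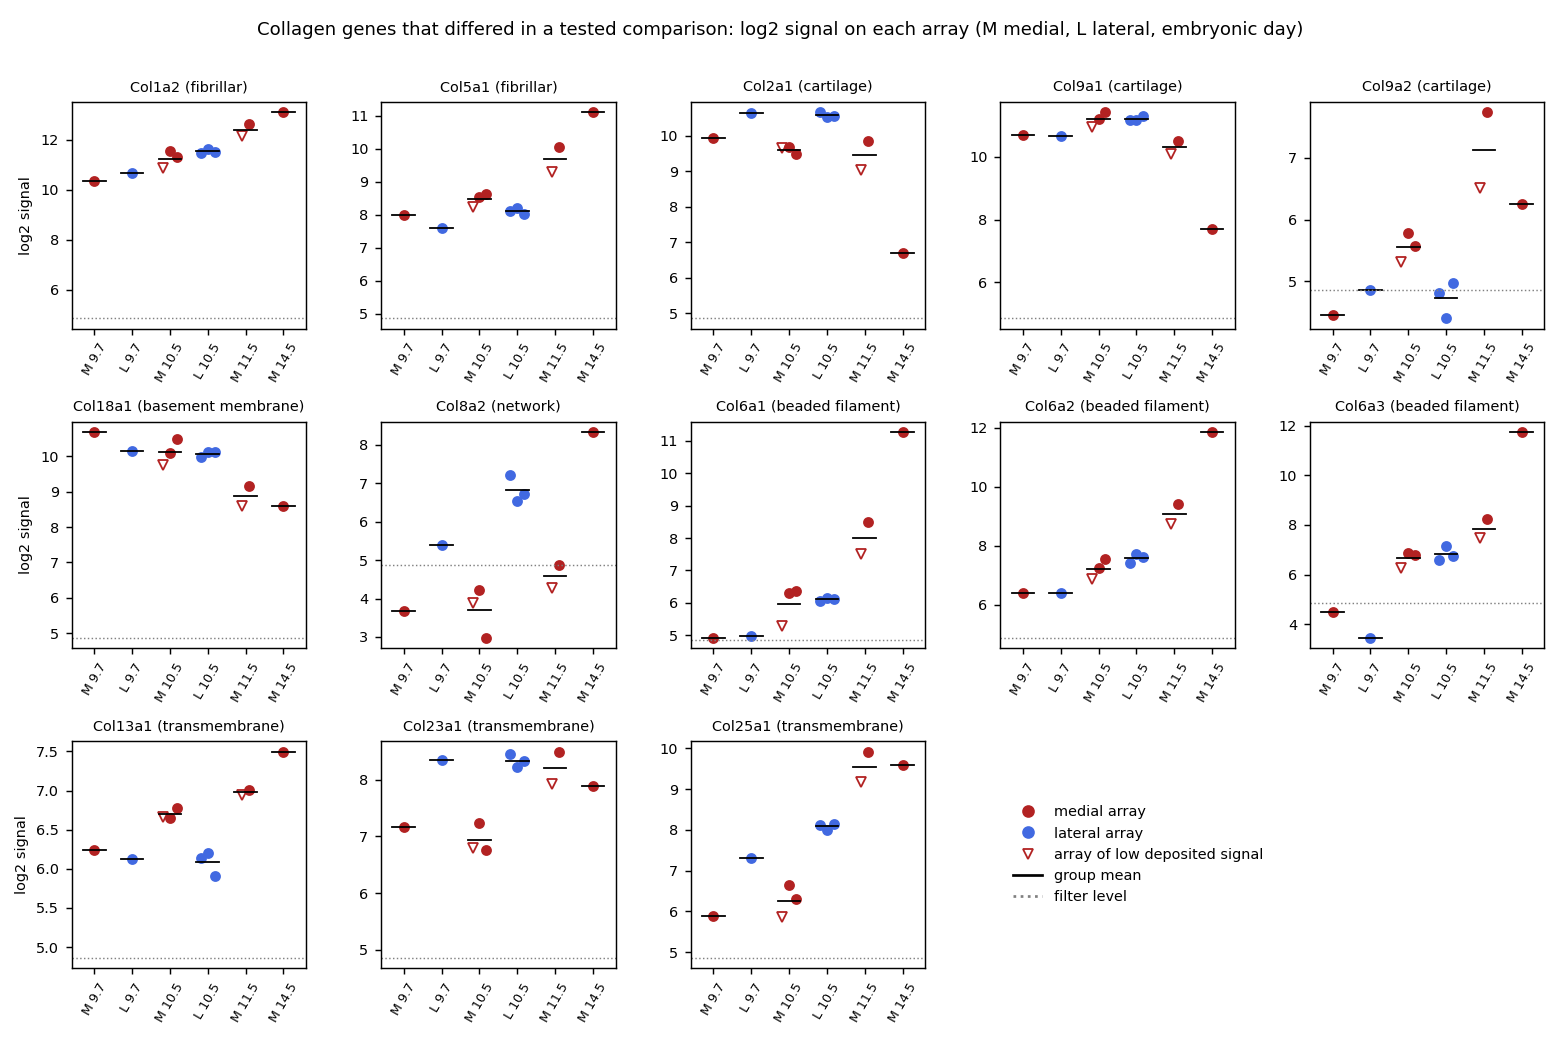
Log2 signal of the 13 collagen genes called in at least 1 tested comparison, 1 panel per gene, with each array as a point, red for medial and blue for lateral tissue, open triangles for the low-signal arrays, a bar for the group mean and a dotted line at the filter level of 4.86. Col8a2, Col23a1 and Col25a1 lie lower on medial than on lateral arrays at both E9.7 and E10.5, and the collagen VI chains are highest at E14.5.

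Of the 5 fibrillar chains tested, 4 had a difference above 0 and none was called. Col5a2, a chain of the type V collagen that nucleates fibrils, came nearest, with 9.93, 10.36 and 10.46 in medial tissue, against 9.59, 9.53 and 9.68 in lateral tissue. The arrays did not overlap, and the difference of 0.65 ± 0.17 had a limma adjusted p of 0.0691, which passed the threshold under 6 of 17 alternatives (range 0.00106 to 0.824). Its partner Col5a1 differed by 0.35 and Col3a1, with 11.97, 12.04 and 11.99 in medial and 11.92, 11.67 and 11.74 in lateral tissue, by 0.22. The 2 chains of type I collagen differed in sign: Col1a1 had 7.51, 8.65 and 7.81 in medial and 7.51, 7.35 and 7.13 in lateral tissue (0.66 ± 0.37), and Col1a2 had 10.89, 11.55 and 11.31 in medial and 11.48, 11.65 and 11.53 in lateral tissue (-0.30 ± 0.19).

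No basement membrane, beaded filament or FACIT chain was called between the regions. The 7 basement membrane chains had a median difference of -0.11. Col4a1 had 9.96, 10.69 and 10.45 in medial and 10.55, 10.24 and 10.39 in lateral tissue, and the neighbouring gene Col4a2, its partner in the common type IV collagen, differed by -0.11. Col18a1, the source of endostatin, had 9.77, 10.09 and 10.502 in medial and 9.97, 10.11 and 10.13 in lateral tissue. All 4 beaded filament chains had a difference below 0 without a call (median -0.15), and so did the 3 FACIT chains (median -0.10). In all, 13 of the 30 members had arrays that did not overlap between the regions, against 25.0% of all genes tested.

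The 5 called differences ran from -3.00 to 0.51 within control-probe batch 1 and from -3.66 to 0.72 within batch 3, which both held the 2 regions. None of the 5 had arrays that overlapped between the regions, so their sign within a batch was fixed in advance. With batch as a fixed effect 9 members were called, 5 of them higher, against 1254 of all 11968 genes. Without medial replicate 3, 3 members were called, against 3.92% of all genes tested. Without lateral replicate 3, 3 members were also called, against 2.59% of all genes tested.

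Cell type markers also differed between the regions. In medial tissue, 5 of 8 epithelial markers were higher (Krt18 by 1.49) with summed levels of 11.2 to 11.4, against 10.2 to 10.4 in lateral tissue. The mesenchyme markers Lum (1.95 ± 0.20, limma adjusted p = 0.000849) and Postn (1.52 ± 0.17, limma adjusted p = 0.00108) were also higher, as 2 of 6. Endothelial markers were higher in 3 of 8 (summed levels 10.53 to 10.59 medially and 10.07 to 10.11 laterally). The tendon regulator Scx (-0.82), the only tendon marker tested, and the muscle gene Tnnt1 (-0.74), 1 of 8 muscle markers, were lower. Sox9, the regulator of cartilage fate, was lower (-1.98 ± 0.33, limma adjusted p = 0.00907), the 1 chondrocyte marker called of 5 tested. The summed chondrocyte markers were 8.39 to 8.95 in medial and 9.20 to 9.55 in lateral tissue, with Acan, Matn1, Matn3, Snorc and Cnmd under the filter level in both. The part of these cell types in the collagen differences was not tested.

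Among genes that make collagen, 3 of 19 tested folding, modification and secretion genes were higher in medial tissue: Sec24d, a coat protein of secretory vesicles (1.01 ± 0.12, limma adjusted p = 0.00187), P4ha2, a proline hydroxylase (0.99 ± 0.13), and Plod2, a lysine hydroxylase (0.92 ± 0.12). None was called lower, and the list's median was -0.05. Of 9 processing and cross-linking genes, Sparc, a collagen-binding matrix protein, was higher (0.99 ± 0.14), and Lox, the cross-linking oxidase, and Adamts3, a procollagen peptidase, were lower (-1.45 ± 0.23 and -1.07 ± 0.19, limma adjusted p = 0.00735 and 0.0136). None of the 5 collagen receptors tested was called.

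At E9.7, with 1 array per region and no test, 4 of 27 members were at least 2-fold apart, against 1.76% of all genes, with 1 higher in medial tissue (1.09% of all genes) and 3 lower (0.667% of all genes). Col8a2 had 3.66 in medial and 5.40 in lateral tissue (at least 1.45-fold apart, counting the medial value at the filter level), Col25a1 had 5.88 in medial and 7.31 in lateral tissue, and Col23a1 had 7.17 in medial and 8.34 in lateral tissue. All 3 were lower in medial tissue, as at E10.5, with differences of -1.73, -1.43 and -1.17. Col1a1 was higher, with 7.44 in medial and 5.38 in lateral tissue, while Col1a2 had 10.38 medially and 10.69 laterally. Col2a1 had 9.94 in medial and 10.64 in lateral tissue (-0.69), and Sox9 was also lower medially (-1.04).

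**Figure D2:**
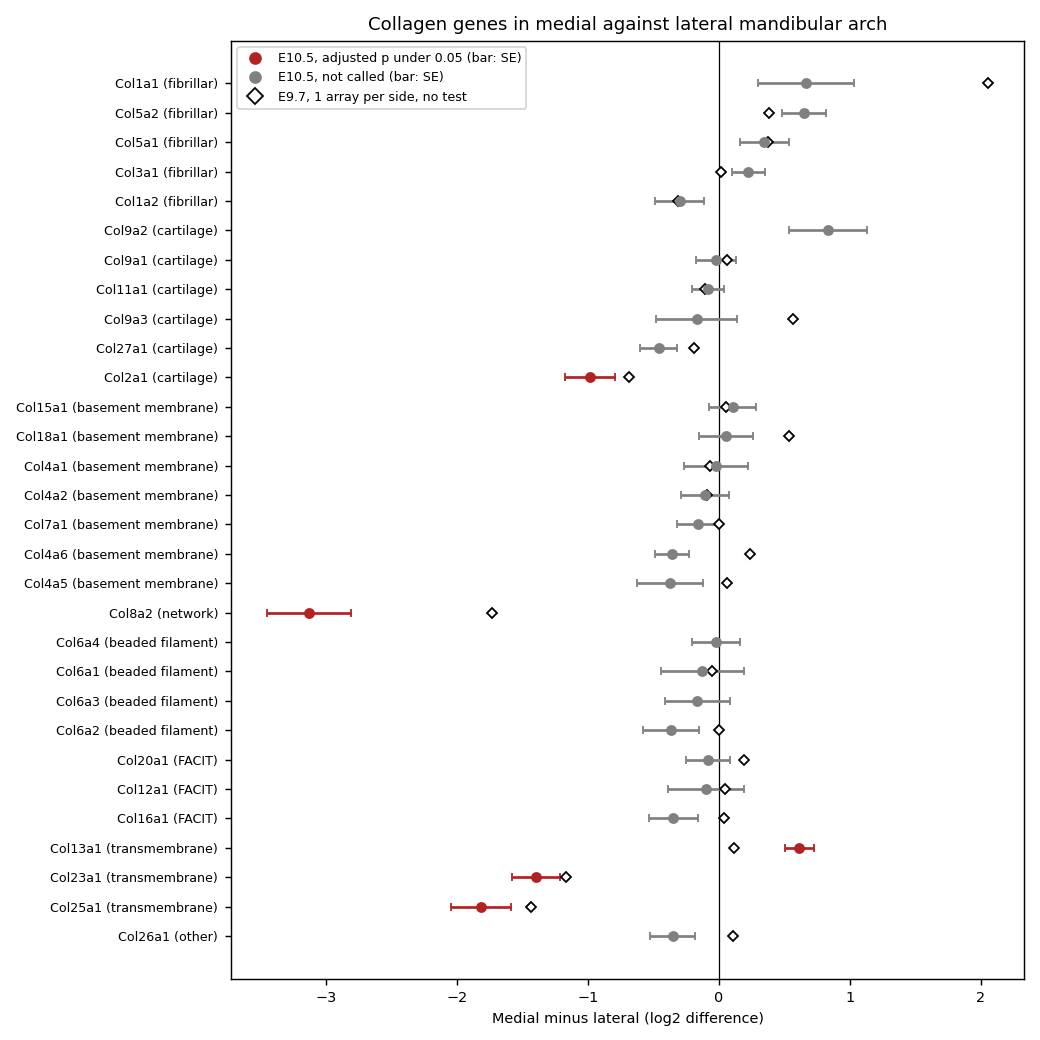
Medial minus lateral log2 difference for the 30 tested collagen genes, grouped by type from fibrillar at the top to Col26a1 at the bottom, with circles and SE bars for E10.5 (3 arrays per region, red where called) and open diamonds for E9.7 (1 array per region, no test). Col8a2 at -3.13, where the medial values lie under the filter level, Col25a1 at -1.82 and Col23a1 at -1.40 lie furthest to the left.

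Between E9.7 and E10.5, Col6a3 stood apart in both regions and Col6a1 and Col6a2 in lateral tissue, again without a test since E9.7 has 1 array per region. In medial tissue, 1 of 29 members was at least 2-fold beyond the E9.7 array on every E10.5 array (0.977% of all genes were, and 0.626% in the same direction, higher). This was Col6a3, with 6.26, 6.89 and 6.81 at E10.5, against 4.51 at E9.7, a difference of 2.14. Medial Col6a1 and Col6a2 differed by 1.06 and 0.84 and did not reach that distance on every array. Without medial replicate 1 there were 3 such members. With fewer arrays the rule is easier to meet for any gene, and the share of all genes under that setting is not given. In lateral tissue, 5 of 30 members were that far above E9.7 and none below (of all genes, 1.34% were that far apart, 0.949% above and 0.390% below).

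Lateral Col6a3 had 6.58, 7.13 and 6.74 at E10.5, against 3.44 at E9.7, which also lay under the filter level. Counting that value at the filter level, its E10.5 mean was at least 3.88-fold higher. Col6a1 had 6.06, 6.15 and 6.11 at E10.5, against 4.97 at E9.7. Col6a2, the chromosomal neighbour of Col6a1, had 7.41, 7.70 and 7.63 at E10.5, against 6.38 at E9.7. All 3 chains of the common type VI molecule were therefore higher on every lateral E10.5 array. The remaining lateral members were Col1a1 (1.94) and Col8a2 (1.43). After median centring of the arrays, the lateral count was 2, with the share of all genes under that setting not given.

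Medial tissue at E11.5 had more RNA of Col6a1, Col6a2 and Col6a3 and of 2 fibrillar chains than at E10.5, and more Col25a1 and Col23a1. In the limma test, 10 of 30 members were called, against 6.92% of all genes, 8 of them higher at E11.5 (4.32% of all genes) and 2 lower (2.60% of all genes). The median difference over the members was 0.28, against 0.00 over all genes tested. This comparison and that of the regions share the medial E10.5 arrays, so they are not independent.

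Col6a1 had 7.50 and 8.48 at E11.5, against 5.27, 6.31 and 6.35 at E10.5, a rise of 2.01 ± 0.36 (limma adjusted p = 0.00954). Col6a2 had 8.73 and 9.41 at E11.5, against 6.87, 7.24 and 7.53 at E10.5 (1.86 ± 0.24, limma adjusted p = 0.00155). The third chain, Col6a3, had 7.46 and 8.24 at E11.5, against 6.26, 6.89 and 6.81 at E10.5 (1.20 ± 0.28, limma adjusted p = 0.0343). For all 3 chains both E11.5 arrays lay above every E10.5 array. Without medial E11.5 replicate 2 the adjusted p was 0.0773 for Col6a1 (alternatives from 9.82e-06 to 0.879) and 0.188 for Col6a3 (0.00144 to 0.879). Col6a3 also missed the threshold without medial E10.5 replicate 1 (0.0675) or replicate 3 (0.0587), with array weights (0.127) and with the 2 compared groups alone (0.0739). Col6a4, a chain outside the common molecule, differed by -0.07.

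Of the fibrillar chains, 2 of 5 were called higher, and all 5 had a difference above 0. Col1a2, a chain of the main fibre of skin, tendon and bone, had 12.16 and 12.65 at E11.5, against 10.89, 11.55 and 11.31 at E10.5 (1.15 ± 0.21, limma adjusted p = 0.0113, and 0.0884 without medial E11.5 replicate 2, within 0.000339 to 0.879 over the alternatives). Col5a1 had 9.30 and 10.04 at E11.5, against 8.24, 8.52 and 8.62 at E10.5 (1.21 ± 0.21, limma adjusted p = 0.00908). Neither gene's arrays overlapped between the stages. Col1a1 had 8.70 and 10.05 at E11.5, against 7.51, 8.65 and 7.81 at E10.5, a larger mean difference of 1.38 but with an SE of 0.41 (limma adjusted p = 0.0902). It passed the threshold in 8 of 16 alternatives, with adjusted p from 0.00122 to 0.879. Col3a1 and Col5a2, chromosomal neighbours, differed by 0.32 and 0.26.

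The 2 transmembrane chains that were lower medially at E10.5 rose medially at E11.5. Col25a1 had 9.18 and 9.91 at E11.5, against 5.86, 6.64 and 6.30 at E10.5, the largest difference among the tested members (3.28 ± 0.26, limma adjusted p = 0.000103). Its second probe set gave 0.43. Col23a1 had 7.92 and 8.49 at E11.5, against 6.80, 7.24 and 6.77 at E10.5 (1.27 ± 0.20, limma adjusted p = 0.00568), and its other probe sets gave 1.38 and 1.59. For both genes the stages did not overlap. Col8a2 had 4.27 and 4.88 at E11.5, close to or under the filter level and with no call (0.88 ± 0.36, limma adjusted p = 0.235).

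Cartilage chains moved in different directions. Col9a2 had 6.51 and 7.74 at E11.5, against 5.31, 5.78 and 5.58 at E10.5 (1.57 ± 0.33, limma adjusted p = 0.0223), while Col9a1, a chain of the same molecule, had 10.10 and 10.502 at E11.5, against 10.94, 11.21 and 11.42 at E10.5 (-0.89 ± 0.17, limma adjusted p = 0.0161). Both had stages that did not overlap, in opposite directions. The third chain, Col9a3, had 4.92 and 6.23 at E11.5, which straddled the E10.5 values of 5.34, 5.83 and 6.05. Col2a1 had 9.04 and 9.86 at E11.5, against 9.64, 9.67 and 9.48 at E10.5, which overlapped, with no call. The Col9a2 call was lost without medial E10.5 replicate 1 (0.0542) or 3 (0.0560) and without E11.5 replicate 2 (0.0931, with a difference of 0.95), with array weights (0.0748) and with the compared groups alone (0.0565). The Col9a1 call was lost without medial E10.5 replicate 2 (0.0510), without E11.5 replicate 1 (0.114) and with the compared groups alone (0.0699). Over the alternatives the adjusted p lay between 0.00159 and 0.879 for Col9a2 and between 0.00133 and 0.879 for Col9a1.

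None of the 7 basement membrane chains was called higher, and Col18a1 was called lower. It had 8.60 and 9.18 at E11.5, against 9.77, 10.09 and 10.502 at E10.5 (-1.23 ± 0.23, limma adjusted p = 0.0122), and both E11.5 arrays lay below every E10.5 array. Without medial E11.5 replicate 1 the adjusted p was 0.0950 (alternatives from 0.000428 to 0.879). Its second probe set gave -1.12. Col4a1 had 10.47 and 11.30 at E11.5, which overlapped with 9.96, 10.69 and 10.45 at E10.5, and its partner Col4a2 had 9.03 and 9.64 at E11.5, which overlapped with 8.69, 9.11 and 9.10 at E10.5. None of the 3 FACIT chains tested was called: Col16a1 had 5.88 and 6.39 at E11.5, against 6.01, 5.91 and 6.08 at E10.5, and Col12a1 had 6.64 and 6.07 at E11.5, against 6.68, 5.59 and 6.29 at E10.5.

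Batch 1 and batch 2 each paired 1 E11.5 array with 1 E10.5 array. The 10 called differences ran from -0.92 to 3.27 within batch 1 and from -1.17 to 3.33 within batch 2. None of the 10 had arrays that overlapped between the stages, so their sign within a batch was fixed in advance. With batch as a fixed effect 16 members were called, 14 of them higher, against 2182 of all 11968 genes (18.2%), 1176 of them higher. Without medial E11.5 replicate 2, fewer members and fewer of all genes were called, with 1 array left at that stage. With single arrays left out, the difference ran from 0.81 to 1.58 for Col6a3 and from 0.95 to 2.19 for Col9a2. In all, 16 of 30 members had arrays that did not overlap between the stages, 13 of them higher at E11.5, against 28.4% and 14.8% of all genes tested.

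**Figure D3:**
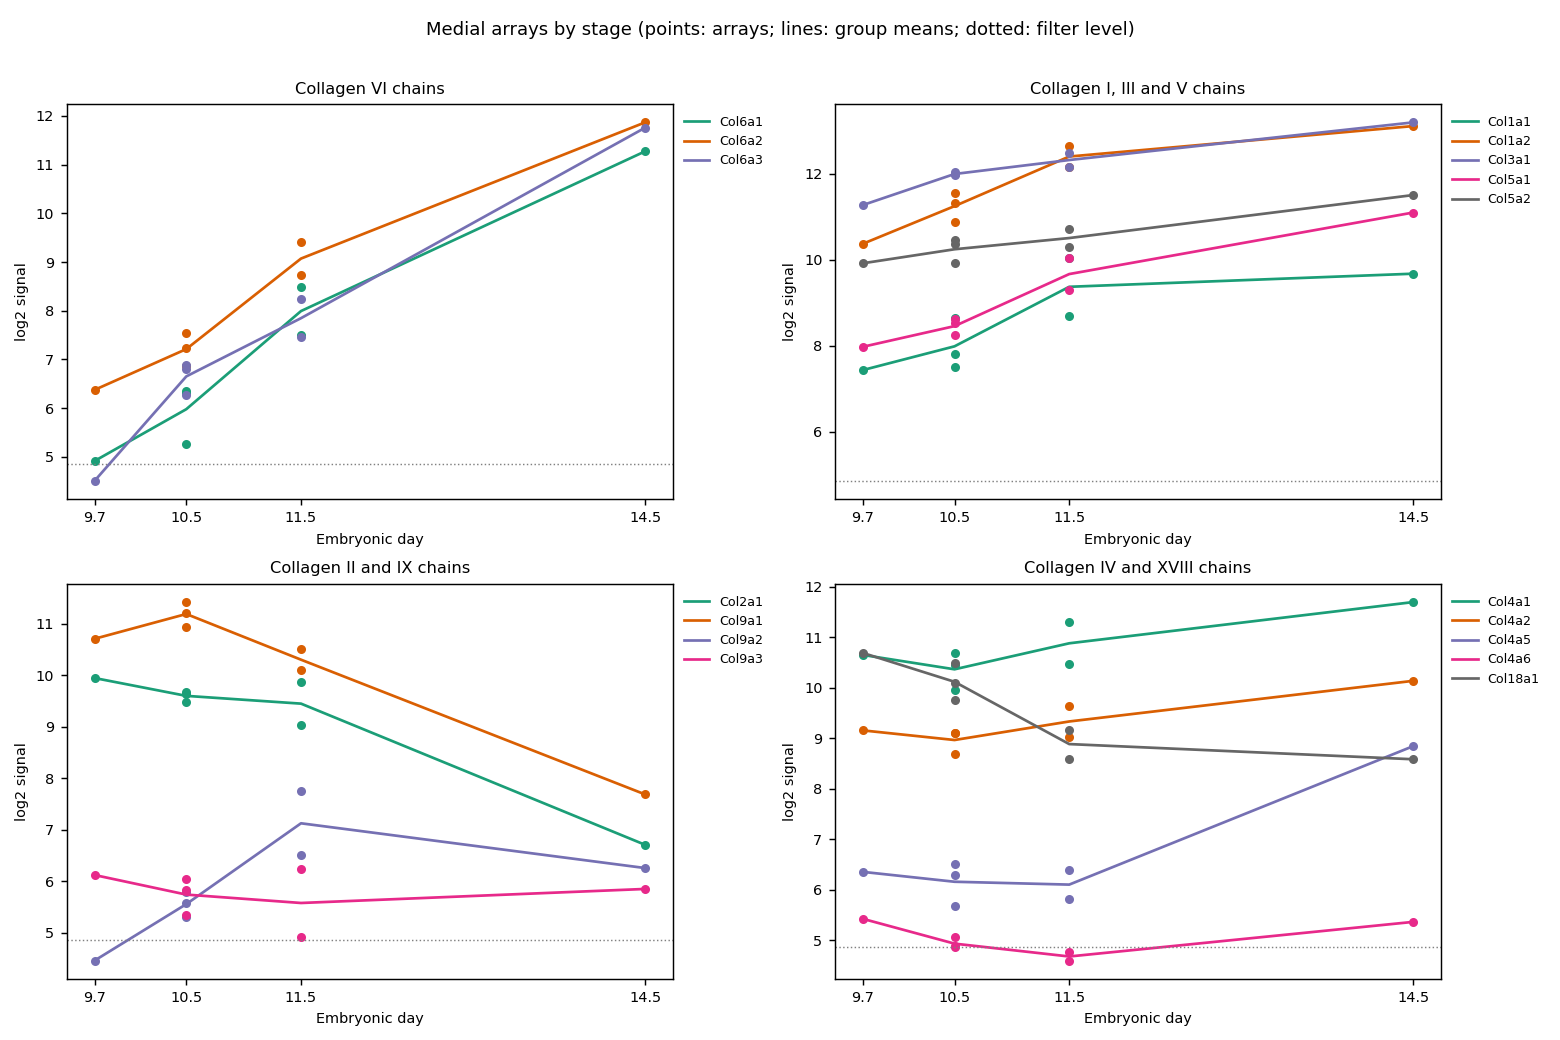
Log2 signal of collagen VI, collagen I, III and V, collagen II and IX, and collagen IV and XVIII chains on the medial arrays at E9.7, E10.5, E11.5 and E14.5, with points for arrays, lines through group means and a dotted line at the filter level. The collagen VI means increase at each step (Col6a1 to 11.27 at E14.5), while Col2a1 and Col9a1 are lowest at E14.5 (6.71 and 7.68), and heights are not comparable between genes.

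Muscle markers were higher at E11.5 in 7 of 8 cases, with Myog, a regulator of muscle differentiation, higher by 5.48 and the sarcomere actin Actc1 by 5.84. Their summed level was 12.5 to 12.9 at E11.5, against 7.63 to 7.87 at E10.5, where Myod1, Myog, Myf5, Myh3 and Ttn were under the filter level. Epithelial markers fell in 6 of 8 cases (Krt14 fell by 2.03), with summed levels of 10.2 to 10.3 at E11.5, against 11.2 to 11.4 at E10.5. Tendon regulator Scx rose by 1.19, and among mesenchyme markers Postn and Pdgfra rose while Prrx1, Lum and Twist1 fell. Of the chondrocyte markers, Hapln1 (-2.14) and Sox6 (-1.08) fell, 2 of 5 tested, and of the endothelial markers Cldn5 (-0.87) and Tek (-0.84), 2 of 8. The glial marker Erbb3 rose by 1.78, 1 of 2 tested, while Sox10 differed by 0.11. The macrophage marker Csf1r, the only 1 tested, rose by 0.89. The embryonic globin Hbb-bh1 fell by 0.69, 1 of 3 red cell genes tested, while Hba-x and Alas2 differed by -0.07 and -0.02. The part of these cell types in the collagen differences was not tested.

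Of 9 processing and cross-linking genes, Lox rose by 2.46 ± 0.26 (limma adjusted p = 0.000486) and Loxl1 by 1.33 ± 0.24 (limma adjusted p = 0.0107). The collagen-binding Sparc rose by 0.81 ± 0.15 (limma adjusted p = 0.0136). None was called lower, although the list's median was -0.10. Pcolce came nearest to a lower call, at -0.67 ± 0.19 (limma adjusted p = 0.0812). Lox had 6.62 and 7.45 at E11.5, against 4.18, 4.68 and 4.86 at E10.5, with no overlap. Of 19 folding, modification and secretion genes, Plod2 (0.68 ± 0.14) and P3h3, of the prolyl 3-hydroxylase family (0.78 ± 0.20), rose, and none of the 5 receptors was called.

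On the E14.5 tongue array, 17 of the 36 members that reached the filter level on at least 1 of the 3 arrays compared were at least 2-fold beyond both medial E11.5 arrays, against 14.6% of all genes, with 15 higher (11% of all genes) and 2 lower (3.63% of all genes). Of the 36, Col14a1, Col17a1, Col19a1, Col22a1, Col24a1 and Col8a1 had not passed the filter on the replicated arrays, 5 of them reached the level on the E14.5 array alone, and all 6 are among the 15. Such genes had to be high at E14.5 to be counted. Over the 30 tested members, 11 were that far apart, 9 higher and 2 lower, against 11.9%, 8.02% and 3.85% of all genes that passed the same filter and reached the level here. There is 1 array at E14.5, so no test was made, and stage, dissection and control-probe batch cannot be told apart. The chains of the common type VI molecule were again higher: Col6a1 had 11.27 at E14.5, against 7.50 and 8.48 at E11.5. Col6a2 had 11.87 at E14.5, against 8.73 and 9.41 at E11.5, and Col6a3 had 11.76 at E14.5, against 7.46 and 8.24 at E11.5. Their differences were 3.28, 2.80 and 3.91.

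Several chains first reached the filter level by a wide margin at E14.5. Col14a1, a FACIT chain of collagen I fibrils, had 9.22 at E14.5, against 3.76 and 4.23 at E11.5. Col22a1, known from the junction of muscle and tendon, had 8.67 at E14.5, against 4.39 and 4.74 at E11.5. Col17a1, a transmembrane chain of the hemidesmosomes that fix epithelium to its basement membrane, had 9.44 at E14.5, against 4.41 and 5.02 at E11.5. Each E14.5 value was far above both E11.5 values. Counting E11.5 values at the filter level, Col14a1 was at least 20.6-fold and Col22a1 at least 13.97-fold higher.

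The 2 chains of the network collagen were both higher, Col8a1 with 7.63 at E14.5, against 4.41 and 4.62 at E11.5, and Col8a2 with 8.34 at E14.5, against 4.27 and 4.88 at E11.5. Col24a1, a minor fibrillar chain, had 6.19 at E14.5, against 2.90 and 3.05 at E11.5, and Col19a1 had 6.28 at E14.5, against 3.43 and 3.76 at E11.5. On the 10 earlier arrays Col14a1, Col22a1, Col17a1, Col8a1, Col24a1 and Col19a1 never exceeded 5.02. Of the FACIT chains already measured earlier, Col16a1 had 8.92 at E14.5, against 5.88 and 6.39 at E11.5, and Col20a1 had 6.68 at E14.5, against 5.37 and 5.14 at E11.5.

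Among basement membrane chains, Col4a5 had 8.85 at E14.5, against 5.82 and 6.39 at E11.5, and Col7a1, the chain of the anchoring fibrils of skin, had 7.99 at E14.5, against 6.27 and 5.98 at E11.5. Both were above the E11.5 arrays. Col4a1 (0.82), Col4a2 (0.81), Col4a6 (0.69), Col15a1 (0.11) and Col18a1 (-0.30) were less than 2-fold apart. In the fibrillar group, Col5a1 had 11.10 at E14.5, against 9.30 and 10.04 at E11.5, while Col1a2 and Col3a1, at 13.11 and 13.20, were 0.71 and 0.88 above the E11.5 means.

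The cartilage chains Col2a1 and Col9a1 were the 2 lower members. Col2a1 had 6.71 at E14.5, against 9.04 and 9.86 at E11.5 (-2.74), and Col9a1 had 7.68 at E14.5, against 10.10 and 10.502 at E11.5 (-2.62). Col9a2 and Col27a1 had smaller differences of -0.87 and -0.25, and Col11a1 and Col9a3 differed by 0.00 and 0.27. Col25a1 had 9.58 at E14.5, between 9.18 and 9.91 at E11.5. Col23a1 had 7.88 at E14.5, against 7.92 and 8.49 at E11.5 (-0.32), and its other probe sets gave -0.66 and -1.47, so the size of its difference depended on the probe set.

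**Figure D4:**
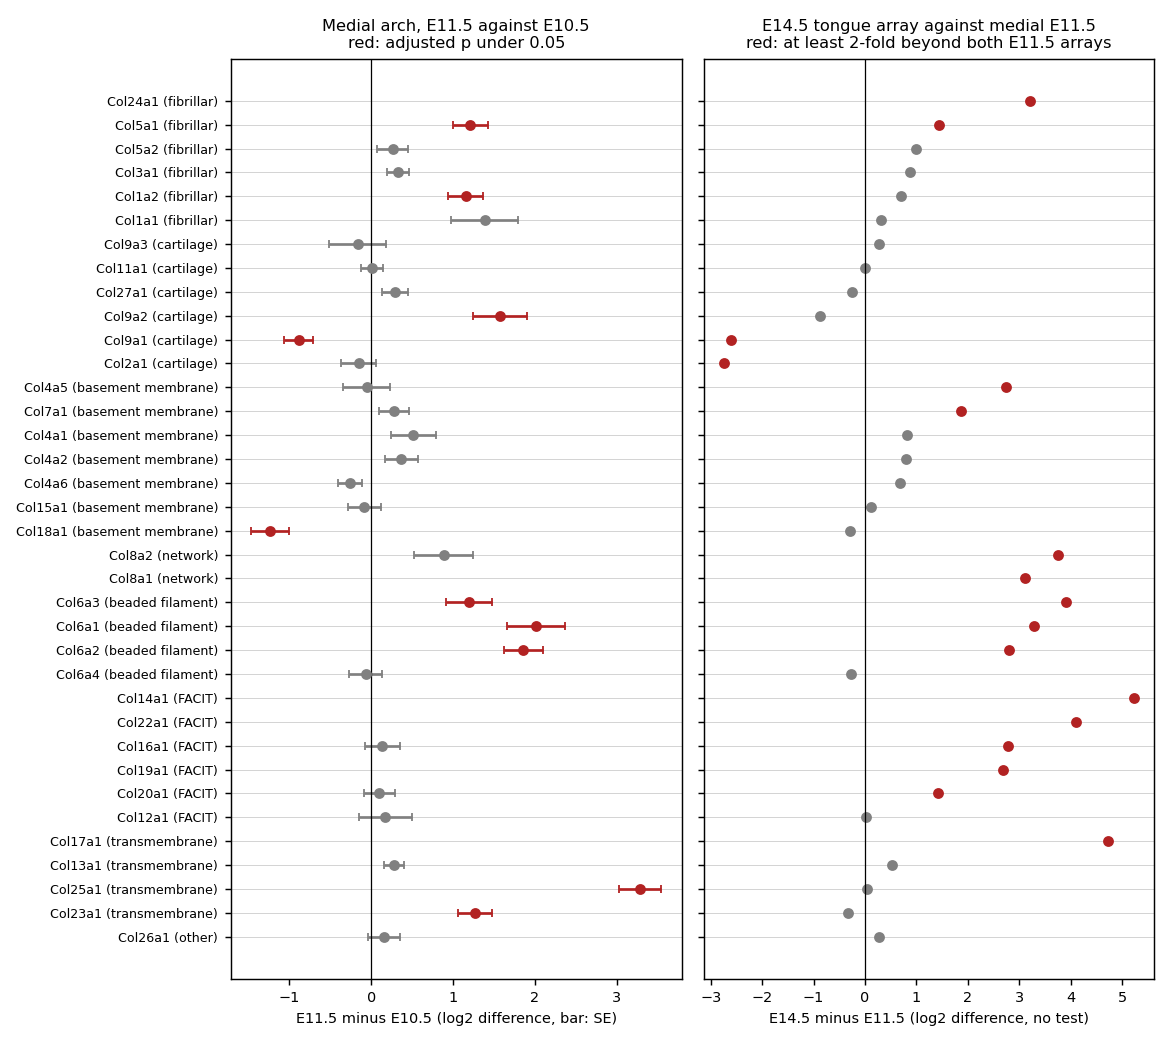
Log2 differences of collagen genes in medial tissue, grouped by type, for E11.5 minus E10.5 on the left (SE bars, 30 tested members, red where called) and E14.5 minus E11.5 on the right (36 members, no test, red where the E14.5 array was at least 2-fold beyond both E11.5 arrays). Col6a1, Col6a2 and Col6a3 lie to the right of 0 in both panels and Col6a4 to the left, and Col2a1 and Col9a1 lie furthest left at E14.5, at -2.74 and -2.62.

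These E14.5 values came with shifts in cell type markers and in RNA measures. Epithelial markers were at least 2-fold higher in 7 of 8 cases (Krt14 by 5.15, Krt5 by 4.51), with a summed level of 12.6, against 10.2 to 10.3 at E11.5, and muscle markers in 5 of 8 (Myh3 by 5.77), with 14.9, against 12.5 to 12.9. Also at least 2-fold higher were the mesenchyme markers Lum (3.50) and Postn (1.48), 2 of 6, and the endothelial marker Cdh5 (2.03), 1 of 8. The macrophage markers Ptprc (1.35) and Csf1r (1.103) were as well, 2 of 3 measured. Ptprc had 5.07 at E14.5, against 3.41 and 4.02 at E11.5. It lay under the filter level on every earlier array, so it had to be high at E14.5 to be counted. The embryonic globins Hbb-bh1 (-7.26) and Hba-x (-4.49) were lower. Of the 5 chondrocyte markers measured, Sox6 was at least 2-fold higher, with 6.76 at E14.5, against 4.71 and 5.39 at E11.5, Sox9 differed by -0.21, and Hapln1, Matn1, Matn3, Snorc and Cnmd were under the filter level at both stages. The part of these cell types was not tested.

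The signal of 3′ over 5′ actin control probe sets was 1.22 on the E14.5 array, against 0.26 to 0.49 on the other 10, and for Gapdh it was 0.15, against -0.15 to -0.03. Probe sets of one gene also diverged more there: in 11 of the 21 members with several probe sets at the filter level, they disagreed by more than 1 on the log2 scale, against 1 of 21 (Col25a1) in either tested comparison. Col1a1 was 0.30 higher at E14.5 by the probe set used and 3.01 higher by the other, and Col12a1 0.01 and 3.61. For Col5a1 the values ran from -0.72 to 1.43, for Col4a1 from -0.27 to 0.82, for Col4a5 from 0.84 to 2.74 and for Col22a1 from 0.19 to 4.10. In contrast, the probe sets of Col6a2 (2.80 and 2.86), Col14a1 (5.23 and 4.25) and Col9a1 (-2.62 and -2.33) lay within 1 of each other. The link between the 3′ to 5′ signal and these divergences was not tested.

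**Figure D5:**
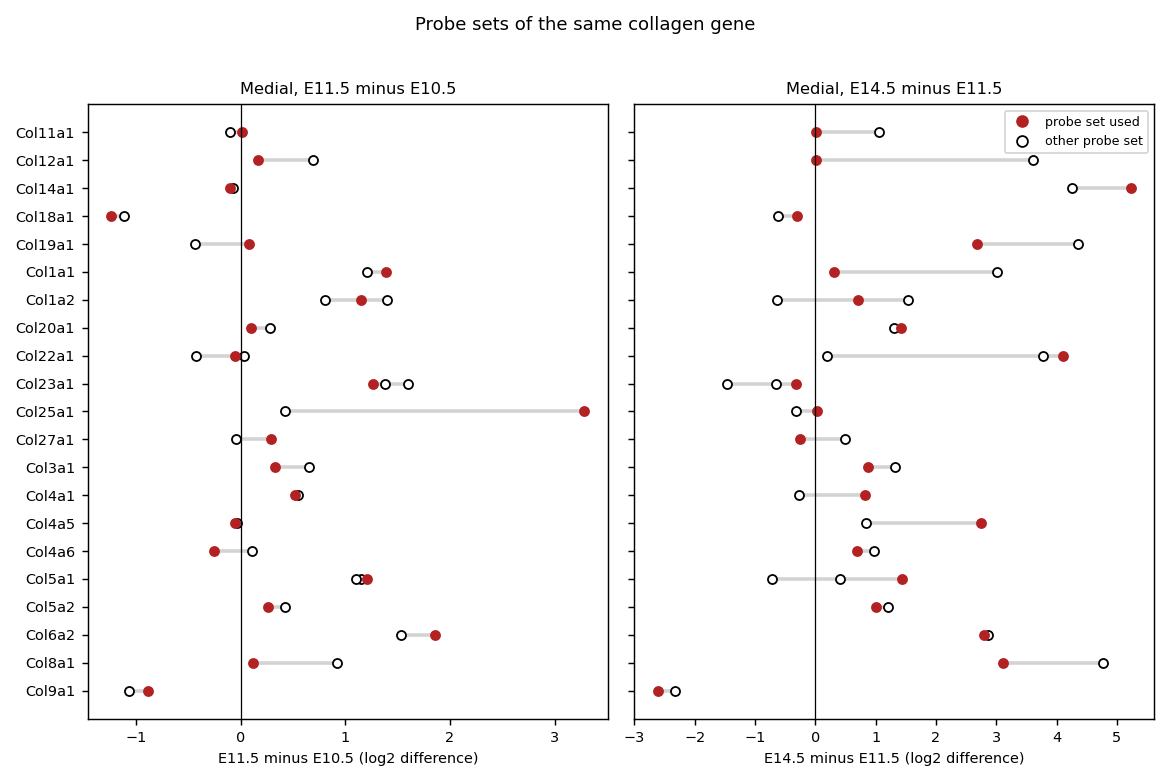
Log2 differences for each probe set of the 21 collagen genes with several probe sets at the filter level, for E11.5 minus E10.5 on the left and E14.5 minus E11.5 on the right, with the probe set used in red, others open, and a grey line spanning them. Probe sets of a gene lie within 1 of each other on the left except for Col25a1, while on the right 11 genes span more than 1, with Col12a1 spanning 0.01 to 3.61.

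Of the helpers of collagen assembly, 4 folding, modification and secretion genes were at least 2-fold higher at E14.5, namely Creb3l1, a transcription factor of collagen-secreting cells (2.12), Plod1 (1.67), Fkbp14 (1.49) and Crtap (1.35). Plod2 was lower, with 8.05 at E14.5, against 9.69 and 9.94 at E11.5. Lox had 10.14 at E14.5, against 6.62 and 7.45 at E11.5, and Loxl1 had 9.60 at E14.5, against 6.90 and 7.60 at E11.5. The collagen-binding integrin chain Itga1 and the collagen uptake receptor Mrc2 were higher by 1.74 and 1.64. Itga1 had 5.73 at E14.5, against 4.05 and 3.93 at E11.5. It lay under the filter level on every earlier array, so it had to be high at E14.5 to be counted.

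Across all comparisons, 13 members were called in at least 1 tested comparison, of which Col25a1 and Col23a1 were called in both. In at least 1 untested comparison, 20 were at least 2-fold apart. Shares of all genes over the pooled comparisons are not given, so these counts only list members. The 20 include Col14a1, Col17a1, Col19a1, Col22a1, Col24a1 and Col8a1, which had not passed the filter on the replicated arrays. Of all such genes in the E14.5 comparison, 56.9% were that far apart. The 18 members neither called nor that far apart were Col10a1, Col11a1, Col11a2, Col12a1, Col15a1, Col26a1, Col27a1, Col3a1, Col4a1, Col4a2, Col4a3, Col4a4, Col4a6, Col5a2, Col5a3, Col6a4, Col6a5 and Col9a3. Of these, Col10a1, the chain of hypertrophic cartilage, ranged from 3.50 to 4.09 over the 11 arrays, and Col4a3, Col4a4, Col5a3, Col11a2 and Col6a5 also stayed under the filter level on every array. Col11a1, which copolymerizes with collagen II, lay between 7.61 and 8.10 on all arrays by the probe set used, while its other probe set was 1.05 higher at E14.5 than at E11.5. Col26a1 had 8.26 and 8.16 in medial and lateral tissue at E9.7, 8.45, 8.98 and 8.91 in medial and 9.09, 9.09 and 9.23 in lateral tissue at E10.5, 8.72 and 9.15 at E11.5 and 9.21 at E14.5.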

How the data were processed

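For the 11 arrays, 3 ug of total RNA was labelled and hybridised to Affymetrix arrays of 45101 probe sets. The values are log2 signals deposited by the authors, made with Affymetrix Expression Console 1.1 per the submitters' processing notes, with the algorithm and genome build not given in the sources used here. Base 2 was inferred from their range of 0.0887 to 14.5. As 2 arrays had far lower medians, the values were quantile normalized across the 11 arrays, with the deposited values kept for comparison.

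Probe sets were named from the platform annotation, with symbols matched to RefSeq by Entrez ID for 34754. The 34958 with 1 symbol gave 18194 genes, each read by its probe set of highest mean. Genes at or over the 50th percentile of the values on 2 or more of the 8 replicated arrays were tested. The fit used limma 3.58.1 in R 4.3.3 over all 6 groups (5 residual degrees of freedom), with Benjamini-Hochberg adjustment over 11968 genes, and was tested on simulated data. With 1 array on a side, a gene was counted where every array lay at least 2-fold beyond the other group. The number of arrays limits the precision. Batches were read from 45 spiked-in control probe sets. Members called or 2-fold apart are given on every array of the groups compared. The 2 brightest of each type are given on the arrays of part of the comparisons, and pathway genes by a few per direction. The collagen genes, types, pathway and marker lists were chosen with earlier results of these data known. Alternatives covered scaling, filter, probe set summary, variance model, array weights, batch, replicate block and leaving out arrays.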

Additional observations from a re-analysis of the deposited data

Results flagged for a closer look

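In 4 cases the collagen values moved one way in every array of one group and the other way in every array of another, under the same contrast. The difference itself was not tested in any of them, and each rests on 1 array per region at E9.7. Medial minus lateral Col26a1 was 0.10 at E9.7 and -0.35 at E10.5. For Col4a6, a basement membrane chain, the same difference was 0.24 at E9.7 and -0.36 at E10.5. The cartilage chain Col9a2 went the other way, with -0.40 at E9.7 and 0.83 at E10.5. Its E9.7 values, 4.46 medially and 4.859 laterally, both lay under the filter level, and its E10.5 difference was not called. Col9a3 differed between E10.5 and E9.7 by -0.38 in medial tissue and by 0.35 in lateral tissue.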

How the results depend on the processing

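With the values as deposited, where low-signal arrays moved the median of all genes by -1.02 between the regions and -0.66 between E11.5 and E10.5, 2 genes (0 higher, 2 lower) and 0 collagen genes were called between the regions and 1 gene and 0 collagen genes between the stages. Signs then reversed, with no call, for Col13a1 (-0.50), Col1a1 (-0.37), Col3a1 (-0.71), Col5a1 (-0.63), Col5a2 (-0.28) and Col9a2 (-0.30) between the regions, and for Col4a1 (-0.16), Col4a2 (-0.33), Col5a2 (-0.43) and Col7a1 (-0.36) between the stages. At an unadjusted p of 0.05 after quantile normalization, 9 of 30 collagen genes passed between the regions (1927 of all 11968 genes did) and 13 between the stages (2155 of all 11968 genes did).

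With each array centred on its median, 358 genes and 3 collagen genes (0 higher, 3 lower) were called between the regions and 455 genes between the stages, and 2 collagen genes were 2-fold apart in lateral tissue between E10.5 and E9.7. Array weights gave 2833 genes and 13 collagen genes between the regions. Batch as a fixed effect gave 1254 genes and 9 collagen genes between the regions, and 2182 genes and 16 collagen genes between the stages. Fitting only the compared groups gave 482 genes between the stages. For medial E10.5 against E9.7, 0 collagen genes were 2-fold apart as deposited and 3 without the low-signal arrays. Leaving out single arrays gave 308 to 538 genes and 3 to 6 collagen genes between the regions, 515 to 814 genes and 6 to 10 collagen genes between the stages, and 1 to 3 collagen genes for medial E10.5 against E9.7. For the alternative counts of 2-fold differences the shares of all genes are not given, and fewer arrays make that rule easier to meet. A group left with 1 array was assumed to vary like the others. The causes were not tested.

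Deviations of same-numbered medial and lateral arrays at E10.5 had correlations of 0.13, -0.29 and 0.48, and the last pair also shares a control-probe batch. So few pairs cannot decide whether arrays of the same number belong together. The 2 numbers shared by E11.5 and E10.5 (0.59 and 0.39) are also shared control-probe batches. With the replicate block, 779 genes and 6 collagen genes were called between the regions, with Col5a2 added (limma adjusted p = 0.0275, alternatives from 0.00106 to 0.824), and 868 genes and 11 collagen genes between the stages, with Col1a1 added (limma adjusted p = 0.0421, alternatives from 0.00122 to 0.879). Col8a2 between the regions, Col25a1 in both comparisons, and Col23a1, Col5a1 and Col6a2 between the stages kept their call under every alternative except the values as deposited.

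Signal limits what can be read: 12 collagen genes did not reach the filter. Col8a2 was under the filter level in medial tissue up to E10.5, and Col6a3 in both regions at E9.7. The E9.7 and E14.5 groups have 1 array each.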

Other observations

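Some collagen genes under the filter level also differed between medial and lateral tissue at E10.5. They were not tested in the main fit, and only the alternative without a filter included them. Col24a1, a minor fibrillar chain, had 3.87, 4.63 and 4.24 on the medial arrays, against 3.15, 3.05 and 2.97 on the lateral arrays, without overlap. Col22a1 had 4.62, 4.78 and 4.47 on the medial arrays, against 4.11, 4.02 and 3.90 on the lateral arrays, also without overlap. At E9.7 Col24a1 had 3.11 in both regions, and at E11.5 it had 2.90 and 3.05 in medial tissue. These values were noticed after the data were examined, and all of them lie under the filter level of 4.86. Both genes were picked for their lack of overlap, which 25.0% of all tested genes also showed, and the share among genes under the filter level is not given.

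The neighbouring genes Col9a1 and Col19a1 differed in opposite directions between E14.5 and E11.5, by -2.62 and 2.68. The neighbours Col6a1 and Col6a2 were both higher at E14.5 (3.28 and 2.80), and so were the neighbours Col4a1 and Col4a2 (0.82 and 0.81) by the probe sets used, less than 2-fold, although the second Col4a1 probe set gave -0.27.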
